A study of Homo sapiens with 9 samples.

Results

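The 9 genes followed here are KLF4, KLF5, KLF17, DPPA3, DPPA5, TFCP2L1, ARGFX, SUSD2 and ZFP42, which are used as markers of naive human pluripotency. They were taken by symbol from the gene tables of both libraries, and all 9 were present once. The study let human pluripotent stem cells of the line ESI017 self-organize in aggregates called human extra-embryoids (hEEs), which hold an inner epiblast-like and an outer hypoblast-like compartment. The ESI017 cells were labelled wild type and untreated, and before aggregation they had been kept in human expanded potential medium, an intermediate state, on mouse feeder cells. Aggregates with visible inner and outer compartments were picked and pooled on day 4 (D4) and on day 6 (D6), and each day gave 1 library of single-cell 3′ RNA sequencing from 1 cell line. Day and library therefore cannot be told apart, no test between conditions was possible. Intervals are given at 95% and reflect counting error alone.

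In each library, cells within the study's limits of depth and mitochondrial share were divided by UMIs (unique molecular identifiers, which count single captured transcripts) of 3 genes. The embryonic gate took cells with at least 5 UMIs of POU5F1, at least 1 of SOX2 and at most 2 of FN1. The hypoblast gate took cells with at least 3 UMIs of FN1, none of SOX2 and at most 5 of POU5F1. On D4 the embryonic gate held 3716 of 9151 kept cells and the hypoblast gate 4061, and on D6 they held 5054 and 3567 of 10097. The remaining 1374 and 1476 cells were in neither gate. Levels are CPM (UMIs of a gene for every 1000000 UMIs), pooled over the cells of a gate, and since a 3′ method captures 1 end of each transcript they are not divided by gene length. Median depth per cell was 15157.5 UMIs on D4 and 14225.5 on D6 in the embryonic gate, and 11012 and 10902 in the hypoblast gate, so shares of cells are given also after thinning each cell to 1 common depth. The gates were checked with genes that did not define them. Of 10 hypoblast genes, 10 were at least 2-fold higher in the hypoblast gate on both days, with APOA1, an apolipoprotein, at 1621 CPM against 20.8 on D4 and at 11926 against 89.6 on D6. Of 8 embryonic genes, 5 were at least 2-fold higher in the embryonic gate on both days, led by UTF1 at 67.7 against 1.13 on D4. EPCAM, an epithelial adhesion gene, was higher in the hypoblast gate, at 529 against 389 on D4 and at 853 against 377 on D6. TDGF1 was too, at 228 against 186 and at 221 against 164. ZIC2 was higher there on D6, at 172 against 99.7, but not on D4, at 85.1 against 96.0. The libraries shared 40 cell barcodes.

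Naive pluripotency is the state of the epiblast before implantation. In human cells it is marked by Krüppel-like factors, by TFCP2L1 and by germ-line-associated DPPA genes, and the surface protein SUSD2 is used to sort it. As cells move through formative to primed pluripotency, KLF17, DPPA5 and ARGFX are lost while POU5F1 and SOX2 are kept. Several of these genes are also used outside the naive epiblast. KLF4 and KLF5 act in many epithelia, DPPA3 in germ cells and the early embryo, and ZFP42 (REX1) is expressed in human cells of more than 1 pluripotent state.

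The promoters of KLF5, DPPA3 and ZFP42 are shown because these genes carried most UMIs of the group and differed in where they were detected. The sequences are the 250 bases before an annotated start, 5′ to 3′ on the strand of the gene (here + for all), from RefSeq on GRCh38.p14, where 7 of the 9 genes had an entry. Capitals mark the KLF core CACCC, the GATA core GATAA, the SOX core ACAAT and the octamer ATGCAAAT, searched on both strands, and no matches overlapped in the sequences printed.
DPPA3, chr12:7711183-7711432: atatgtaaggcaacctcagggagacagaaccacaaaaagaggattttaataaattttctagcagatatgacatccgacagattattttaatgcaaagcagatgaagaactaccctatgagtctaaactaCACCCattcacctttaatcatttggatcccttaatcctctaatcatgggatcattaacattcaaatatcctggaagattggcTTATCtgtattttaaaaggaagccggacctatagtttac
KLF5, first start, chr13:73054726-73054975: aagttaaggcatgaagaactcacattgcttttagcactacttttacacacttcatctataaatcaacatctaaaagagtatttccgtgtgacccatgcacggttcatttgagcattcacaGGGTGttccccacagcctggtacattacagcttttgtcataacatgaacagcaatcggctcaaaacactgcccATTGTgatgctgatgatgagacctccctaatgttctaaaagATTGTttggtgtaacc
KLF5, second start, chr13:73058755-73059004: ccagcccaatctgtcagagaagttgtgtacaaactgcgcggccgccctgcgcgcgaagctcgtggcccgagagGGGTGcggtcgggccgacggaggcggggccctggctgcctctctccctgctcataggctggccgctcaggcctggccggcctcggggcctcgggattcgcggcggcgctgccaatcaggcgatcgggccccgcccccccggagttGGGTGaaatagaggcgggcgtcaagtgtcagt
ZFP42, chr4:187995521-187995770: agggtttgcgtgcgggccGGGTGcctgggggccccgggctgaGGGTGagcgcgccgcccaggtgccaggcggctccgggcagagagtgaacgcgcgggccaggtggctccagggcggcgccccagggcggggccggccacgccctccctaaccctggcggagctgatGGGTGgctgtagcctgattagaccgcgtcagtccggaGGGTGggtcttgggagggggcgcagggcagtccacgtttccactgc
The DPPA3 promoter held 1 KLF core and 1 GATA core, with 35.6% G and C and 2 CpG sites, against medians of 58% and 11 sites over 35116 promoters. The second KLF5 start held 2 KLF cores with 70.8% G and C and 27 CpG sites, and the first held 1 KLF core and 2 SOX cores with 40.8% and 3 sites. The ZFP42 promoter held 4 KLF cores with 74.4% G and C and 23 CpG sites. Of all promoters, 54.7% held the KLF core, 20.4% the GATA core, 24.6% the SOX core and 1.63% the octamer. Sequence matches of this length are a description of the letters in these windows only. The data here count 3′ ends and do not show which KLF5 start was used.

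In the embryonic gate the group was carried by 1 gene. The 9 genes together had 107 CPM on D4 and 104 on D6, of which ZFP42 made 91.8% and 88.5%. The other 8 summed to 8.84 and 12.0 CPM, beside 1172 and 1348 for POU5F1 and 278 and 295 for SOX2, both used for the gate. In the hypoblast gate the 9 genes summed to 83.1 on D4 and 171 on D6, and the share of ZFP42 was 56.1% and then 29.4%. There the other 8 summed to 36.5 and 121 CPM, of which KLF5 gave 23.4 and 70.8, DPPA3 6.73 and 44.3, and KLF4 5.39 and 3.76.

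**Figure D1:**
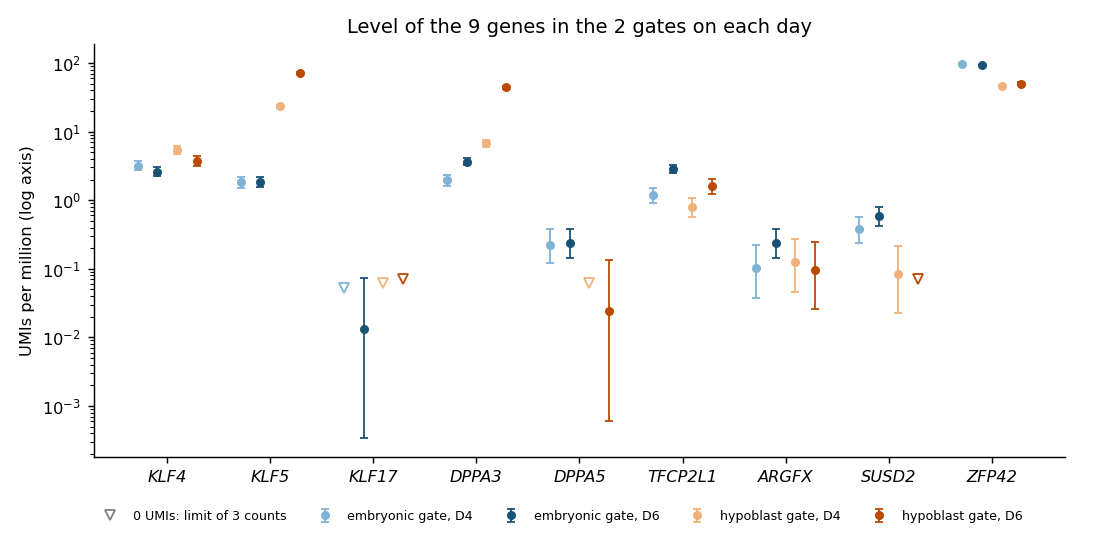
Level of each of the 9 genes in CPM (log axis) in the embryonic gate (blue) and the hypoblast gate (orange) on D4 (light) and D6 (dark), with exact 95% Poisson intervals and open triangles at the limit of 3 counts where no UMI was found. ZFP42 was at 46.6 or more in every gate, KLF5 and DPPA3 were highest in the hypoblast gate on D6 at 70.8 and 44.3, and KLF17, DPPA5, ARGFX and SUSD2 were at 0.588 or less everywhere.

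KLF17, a Krüppel-like factor that is a defining marker of human naive cells (chr1:44043927-44135140 in GRCh38), was close to absent. No UMI was found in 3716 cells of the embryonic gate on D4, which allows a level of up to 0.0519 CPM and a share of up to 0.0807% of cells with a UMI. None was found in the hypoblast gate on either day, which allows up to 0.0627 CPM and 0.0739% of cells on D4, and up to 0.0718 and 0.0841% on D6. A single UMI was found in 1 of 5054 cells of the embryonic gate on D6, a level of 0.0134 (0.000338 to 0.0745). The bound limits cells in which a transcript was captured, not cells that express the gene. The span of KLF17 holds 4 other annotated genes or pseudogenes, and 2 pseudogenes elsewhere carry its name.

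DPPA5, SUSD2 and ARGFX were detected in few cells, and no cell held more than 1 UMI of any of them in either gate. DPPA5, a germ-cell- and pluripotency-associated RNA-binding protein gene (chr6:73353063-73354276), had 13 UMIs in the embryonic gate on D4 and 18 on D6, which are 0.225 (0.120 to 0.385) and 0.241 (0.143 to 0.380) CPM. In the hypoblast gate it had 0 UMIs on D4, with a limit of 0.0627, and 1 UMI on D6. SUSD2, the surface marker (chr22:24181487-24189106), had 22 and 44 UMIs in the embryonic gate, at 0.381 (0.239 to 0.576) and 0.588 (0.427 to 0.789), against 4 UMIs and 0 UMIs in the hypoblast gate. ARGFX, a homeobox gene of early embryos (chr3:121567949-121590622), had 6 UMIs in each gate on D4, then 18 in the embryonic and 4 in the hypoblast gate on D6. DPPA5 and SUSD2 were thus detected mainly in the embryonic gate, while the intervals of ARGFX in the gates overlapped on both days. Cells with a UMI made 0.356%, 0.871% and 0.356% of the embryonic gate on D6 for DPPA5, SUSD2 and ARGFX. After thinning these shares were 0.158%, 0.158% and 0.0396% (8, 8 and 2 cells). ARGFX was then at 0.0561% (2 cells) in the hypoblast gate. DPPA5 has 4 named pseudogenes, ARGFX 2 and SUSD2 2, none of which had a row in the table, so reads from near-identical copies could not be told apart.

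TFCP2L1, a Grainyhead-family factor of the naive network (chr2:121216587-121285202), was low in every gate. It had 68 UMIs at 1.18 CPM (0.914 to 1.49) in the embryonic gate on D4, and 213 UMIs at 2.85 (2.48 to 3.26) on D6. Hypoblast-gate cells had 38 UMIs at 0.794 (0.562 to 1.09), and then 67 UMIs at 1.60 (1.24 to 2.04). The order of levels was embryonic D6, hypoblast D6, embryonic D4 and hypoblast D4, and only the first stood clear of its neighbour's interval. After thinning, 0.791% of embryonic cells had a UMI on D6 against 0.269% on D4. Within the embryonic gate, cells with at least 2 UMIs of TFAP2A, an amnion-associated factor, had 6.82 CPM (4.75 to 9.48, 350 cells) on D6. On D4 such cells had 1 UMI in 81 cells, at 0.746 (0.0189 to 4.16). Embryonic cells outside the TFAP2A, TBXT and TAGLN sub-gates had 1.13 (0.852 to 1.46) on D4 and 2.61 (2.24 to 3.03) on D6, so D6 was also higher without those cells. Thinned shares on D6 were 2.00% (0.808 to 4.08, 7 cells) with TFAP2A and 0.697% (0.478 to 0.983) outside the sub-gates, and these intervals overlapped. Cells of neither gate were at 0.806 and 3.08.

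KLF4, the reprogramming factor (chr9:107484852-107489769), was low in every gate and higher in the hypoblast gate, by log2 ratios of embryonic over hypoblast of -0.76 (-1.04 to -0.48) on D4 and -0.52 (-0.83 to -0.21) on D6. It had 184 UMIs at 3.18 CPM (2.74 to 3.68) in the embryonic gate on D4 and 196 at 2.62 (2.27 to 3.01) on D6. Hypoblast-gate cells had 258 at 5.39 (4.76 to 6.09) and 157 at 3.76 (3.19 to 4.39). From the highest, the order was hypoblast D4, hypoblast D6, embryonic D4 and embryonic D6, and the intervals of the last 3 overlapped from each to the next. Shares of thinned cells with a UMI were 1.70% and 1.29% in the hypoblast gate and 1.02% and 1.03% in the embryonic gate. By level KLF4 stood above 54.8% of the genes detected in the embryonic gate on D4.

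KLF5, a Krüppel-like factor of naive cells, trophectoderm and epithelia (chr13:73054976-73077538), was mainly detected in the hypoblast gate. It had 1117 UMIs there at 23.4 CPM (22.0 to 24.8) on D4 and 2959 at 70.8 (68.3 to 73.4) on D6. The embryonic gate had 105 at 1.82 (1.49 to 2.20) and 138 at 1.84 (1.55 to 2.18), with intervals that nearly coincided. The hypoblast gate was higher 12.9-fold on D4 and 38.4-fold on D6. A UMI was found in 21.3% of hypoblast cells on D4 and in 45.8% on D6, against 2.64% and 2.47% of the deeper embryonic cells. After thinning these shares were 7.02% and 19.3% against 0.511% and 0.712%. By level KLF5 stood above 77.4% of the genes detected in the hypoblast gate on D4 and above 90.4% on D6. Cells in neither gate were between the gates, at 11.7 and 34.3 CPM.

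DPPA3 (STELLA), a maternal, germ-cell and naive-state factor (chr12:7711433-7717559), had the largest difference between days of the 9 genes. The hypoblast gate had 322 UMIs at 6.73 CPM (6.02 to 7.51) on D4 and 1852 at 44.3 (42.3 to 46.4) on D6, a 6.59-fold difference. In the embryonic gate there were 113 UMIs at 1.96 (1.61 to 2.35) and 272 at 3.63 (3.22 to 4.09). The order was hypoblast D6, hypoblast D4, embryonic D6 and embryonic D4, and no adjacent intervals overlapped. Shares of cells with a UMI were 6.43% and 26.0% in the hypoblast gate and 2.99% and 4.71% in the embryonic gate. Thinned shares were 1.95% and 9.98% against 0.404% and 1.44%. RefSeq lists 12 named pseudogenes of DPPA3, none with a row in the table, so counts could include or lose reads of near-identical copies.

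ZFP42, a zinc-finger gene and long-used marker of pluripotent cells (chr4:187995771-188005246), was the most abundant of the 9 in the embryonic gate and was detected in both gates. The embryonic gate had 5691 UMIs at 98.5 CPM (95.9 to 101) on D4 and 6903 at 92.2 (90.1 to 94.4) on D6. The hypoblast gate had 2230 at 46.6 (44.7 to 48.6) and 2103 at 50.3 (48.2 to 52.5). The embryonic gate was therefore higher 2.11-fold on D4 and 1.83-fold on D6, and on D6 it was 1.07-fold lower in the embryonic gate and 1.08-fold higher in the hypoblast gate than on D4. A UMI was found in 73.6% and 69.2% of embryonic cells and in 39.1% and 41.0% of hypoblast cells. Thinned, these were 28.9% and 27.2% against 13.7% and 15.6%. ZFP42 stood above 93.6% of genes detected in the embryonic gate on D4 and above 86.7% in the hypoblast gate.

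Free RNA in droplets can give UMIs in cells that do not make a gene, so the lower gate of each gene is set beside genes of the other lineage. The level of ZFP42 in the hypoblast gate was 47.3% of that in the embryonic gate on D4 and 54.6% on D6. Embryonic genes spanned a wide range by the same measure. UTF1 was at 1.67% and 3.88%, SFRP2, a WNT antagonist, at 1.54% and 1.47%, DPPA4 at 20.6% on both days, and CD24, a surface glycoprotein, at 28.7% and 50.4%. DNMT3A, a DNA methyltransferase named here after its values were seen, was at 70.9% and 89.8%. It alone of the genes just named was above ZFP42. The 5 embryonic genes of the gate check that were at least 2-fold higher were below ZFP42 on both days. That threshold by itself keeps this percent low. They ranged from 1.67% for UTF1 to 32.9% for SALL2 on D4, and from 3.88% for UTF1 to 26.6% for L1TD1 on D6. ZIC2 was at 88.7% on D4. EPCAM and TDGF1 were higher in the hypoblast gate on both days, as was ZIC2 on D6. In the other direction, KLF5 in the embryonic gate was 7.78% and 2.60% of its hypoblast level, and DPPA3 was 29.0% and 8.20%. The 10 hypoblast genes of the gate check ranged from 1.28% for APOA1 to 17.4% for SERPINE2 on D4, and from 0.752% for APOA1 to 13.5% for SOX17 on D6. KLF5 was inside this range on both days, and DPPA3 above it on D4 and inside it on D6. Between the days, the embryonic level of DPPA3 was higher on D6 by a log2 ratio of 0.89 (0.57 to 1.22), and that of KLF5 was at 0.02 (-0.36 to 0.40). Of the 10 hypoblast genes of the gate check, 1 was at least 2-fold higher there on D6 (APOA1, at 2.11). Another 1 was at least 2-fold lower (FOXA2, at -1.39), 8 were between, and the median of the 10 was 0.09. The part of free RNA in the DPPA3 value was not tested.

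Set beside all genes, members were called on both sides. A gene was compared where both groups together had at least 10 UMIs, and it was called where the ratio was at least 2-fold. A group without a UMI was set to 3 counts, which bounds that group only and leaves out the counting error of the other. On D4, 3 of 8 compared members were called higher in the embryonic gate, where 16.5% of all 20214 compared genes were. They were DPPA5 at 3.59-fold with the empty gate set to 3 counts, SUSD2 at 4.55-fold, and ZFP42. The log2 interval of DPPA5 began at 1.33. Another 2 were called lower (KLF5 and DPPA3), where 15.2% were. On D6, 3 of 8 were higher, beside 22.0% of 20708 genes. DPPA5 was at a log2 ratio of 3.33 with an interval of 0.67 to 8.71 from 18 UMIs against 1. SUSD2 was at 8.19-fold with the empty gate set to 3 counts, and its log2 interval began at 2.67. ARGFX was at 2.51-fold with an interval that held no difference. KLF5 and DPPA3 were again the 2 called lower, beside 14.7%. With 8 genes these counts are a description. The median log2 ratio of the members was 0.15 on D4 and 0.85 on D6, with an empty gate set to 3 counts. For all genes it was 0.05 and 0.18. The 3 genes called higher on D6 reached 10 UMIs only through the embryonic gate, at 18, 44 and 18 UMIs. That gate held more UMIs in total, and the 3 genes did not reach the minimum with thinned cells. DPPA5 and SUSD2 on D4 were alike in this. Summed over the 9 genes, D6 levels were 104 CPM in the embryonic gate and 171 in the hypoblast gate. The shift of all genes on D6 was over 0.1, and relative to it ZFP42 was at 0.70 and KLF5 at -5.44.

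Between days, D6 was at least 2-fold higher for 2 of 8 members in the embryonic gate, TFCP2L1 at 2.42-fold and ARGFX at 2.32-fold with an interval that held no difference, beside 5.43% of 20639 genes. No member was called lower there, beside 2.02%. With thinned cells the 2 called were TFCP2L1 and DPPA3, the latter at a log2 ratio of 1.92 in place of 0.89, and ARGFX had too few UMIs. In the hypoblast gate 3 of 6 were higher, DPPA3 at 6.59-fold, KLF5 at 3.03-fold and TFCP2L1 at 2.02-fold, beside 6.40% of 19306 genes, and none was lower, beside 6.02%. TFCP2L1 was under 2-fold with stricter gates, without MT- genes in the total and with thinned cells (log2 0.91, 0.99 and 0.82), which leaves 2 members. KLF4 was lower on D6 in the hypoblast gate, at a log2 ratio of -0.52 (-0.82 to -0.23), which is short of 2-fold. The median log2 ratio of the members was 0.36 and 0.56 in the embryonic and hypoblast gates, beside 0.09 and -0.01 for all genes. For KLF17, DPPA5 and SUSD2 no ratio between days was formed in the hypoblast gate, as too few UMIs were found.

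**Figure D2:**
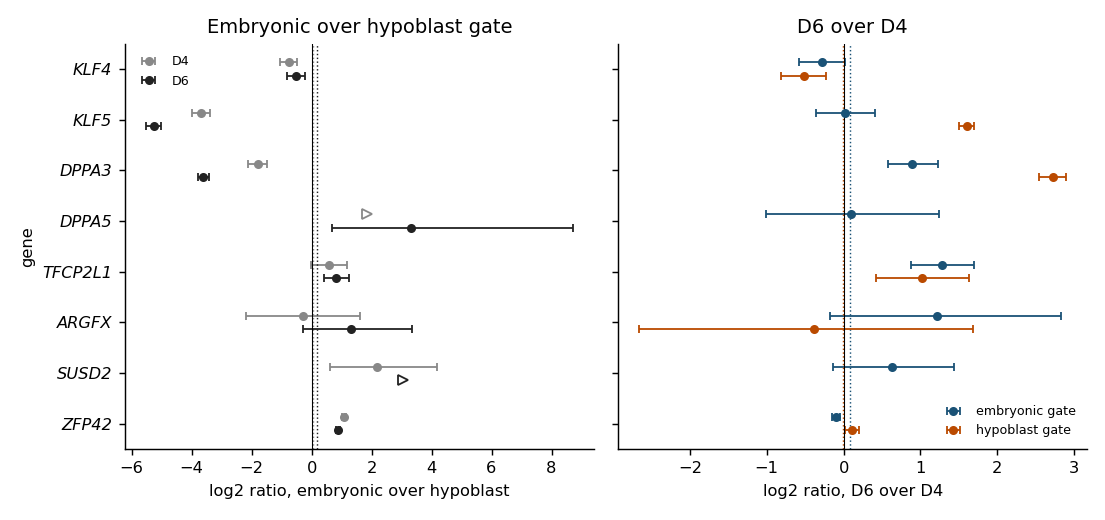
Log2 ratios of the members with exact conditional 95% intervals, embryonic over hypoblast gate on D4 (grey) and D6 (black) at left, and D6 over D4 in the embryonic gate (blue) and the hypoblast gate (orange) at right. Open triangles are lower bounds, dotted lines are medians of all genes, and KLF17 is left out. KLF5 at -3.68 and -5.26 and DPPA3 at -1.78 and -3.61 are on the hypoblast side, and ZFP42 at 1.08 and 0.87 is on the embryonic side.

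KLF5 and DPPA3 were unevenly spread over the hypoblast cells of D6. If every cell of the gate had the same level at its own depth, 54.8% of cells would have a KLF5 UMI and 39.7% a DPPA3 UMI, and 45.8% and 26.0% had one. Cells with 3 or more UMIs made 9.31% for KLF5 where an even level gives 5.90%, and 6.39% for DPPA3 where it gives 1.92%. The 228 cells with 3 or more UMIs of DPPA3 held 51.8% of its UMIs in the gate, and the highest cell had 14. By the share of cells with a UMI, ZFP42 was closer to even on D6. It was at 41.0% of hypoblast cells against 43.5% and 69.2% of embryonic cells against 72.7%. Cells with 3 or more UMIs of ZFP42 were also above an even level, at 3.90% against 2.63% in the hypoblast gate. In the embryonic gate they were at 17.5% against 16.5%. Genes outside the members were not measured in this way. On D4 the shares of hypoblast cells with KLF5 and DPPA3 were 21.3% against 23.7% and 6.43% against 7.59%. Cells with 3 or more UMIs then made 1.23% for KLF5 (50 cells) where an even level gives 0.362%. For DPPA3 they made 0.320% (13 cells) where it gives 0.0105%, so both were above an even level on D4 too.

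**Figure D3:**
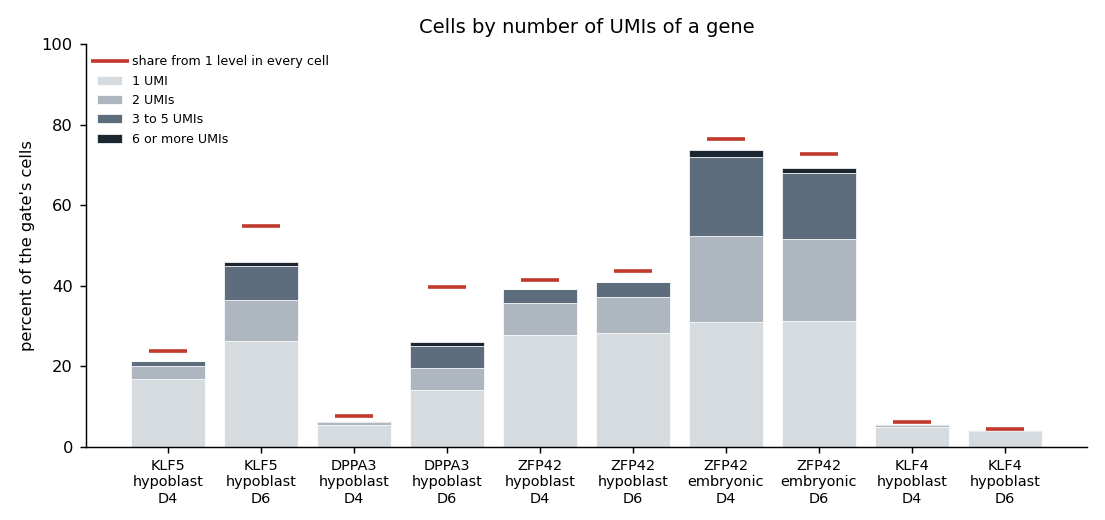
Percent of a gate's cells with 1, 2, 3 to 5, or 6 or more UMIs of a gene (stacked from light to dark) for KLF5, DPPA3, ZFP42 and KLF4, with red marks at the share of cells with a UMI that 1 level in every cell would give at the cells' own depths. The gap to the red mark is widest for DPPA3 in the hypoblast gate on D6, at 26.0% of cells against 39.7%.

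In thinned hypoblast cells of D6, KLF5 and DPPA3 were found together in 107 of 3567 cells, 3.00%, where the product of their shares is 1.93%. For KLF5 with ZFP42 the values were 3.14% and 3.01%, and for DPPA3 with ZFP42 1.37% and 1.56%. The 356 thinned cells with a DPPA3 UMI had 106 CPM of KLF5 against 64.6 in the 3211 cells without, and median depths of 11553 and 10836 UMIs before thinning. In these cells POU5F1 was lower, at 26.2 against 44.2, and APOA1 higher, at 14301 against 11617. POU5F1 is a gate gene with an upper limit in the hypoblast gate. Its levels here were therefore bounded by the selection of cells, and no cell state is read from them. AFP and TTR, yolk-sac endoderm genes that were chosen after their values were seen, went in opposite directions. AFP was at 30.3 from 37 UMIs against 11.8, and TTR at 6.55 from 8 UMIs against 18.7. Cells with KLF5 had AFP at 7.62 from 18 UMIs against 15.1, and 19.0 against 17.1 for TTR. Across cells of 1 library these values share depth and droplet background and are a description only.

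DPPA3 is also a germ-cell gene, so germ-cell genes were counted in the same cells, without thinning. Of 927 hypoblast cells with a DPPA3 UMI on D6, 1 had a UMI of NANOS3, a germ-cell RNA-binding protein gene, and 1 had one of TFAP2C, while 489 had PRDM1 and 644 SOX17, both of which are also endoderm genes. Of the whole gate, 1857 and 2258 of 3567 cells had PRDM1 and SOX17, and 6 and 10 had NANOS3 and TFAP2C. In the embryonic gate 238 cells had DPPA3 on D6, of which 2 had NANOS3, 30 TFAP2C, 50 SOX17 and 7 PRDM1. Of all 5054 cells of that gate, 32, 607, 901 and 92 had these genes. Among cells of neither gate, 21 had UMIs of TFAP2C, SOX17 and PRDM1 at once on D6, of which 7 had DPPA3 and 1 NANOS3. Of all cells of neither gate, 249 of 1476 had DPPA3 on D6 and 52 of 1374 on D4, and doublets, which could lie among them, were not called. On D4, 17 such cells were found and none had DPPA3 or NANOS3. Of 8 germ-cell genes, DPPA3 included, 2 were at least 2-fold higher in the embryonic gate and 4 lower on D4, and 3 and 4 on D6, where 16.5% and 15.2%, then 22.0% and 14.7%, of all genes were.

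Marker sub-gates showed where in each lineage the genes were higher. On D4, hypoblast cells with at least 5 UMIs of CER1, a gene of the anterior signalling hypoblast, had KLF5 at 37.5 CPM (32.0 to 43.6, 336 cells). Hypoblast cells with ISL1 were at 16.9 (14.6 to 19.4, 957 cells) and those with neither at 24.0 (22.4 to 25.8). On D6 the corresponding levels were 65.9 (50.7 to 84.4, 59 cells), 49.3 (40.8 to 59.1, 203 cells) and 72.3 (69.7 to 75.1). The interval of the CER1 cells then held that of cells with neither marker, and the highest CER1 cell had 12 of their 63 UMIs. After thinning, 9.82% (6.86 to 13.5) of CER1 cells had a KLF5 UMI on D4. Cells with neither marker were at 7.41% (6.47 to 8.44), so these intervals overlapped on D4 too. DPPA3 was lowest in the ISL1 cells on both days, at 4.18 (3.10 to 5.51) against 7.53 in cells with neither marker on D4, and at 24.4 (18.6 to 31.6) against 45.8 on D6. CER1 cells were at 7.36 (5.06 to 10.3) and 34.5 (23.8 to 48.5), and these intervals overlapped those of the ISL1 cells. Thinned shares on D4 were 1.15% (0.575 to 2.05) with ISL1, 1.19% with CER1 and 2.28% (1.76 to 2.90) with neither. On D6 they were 4.93% (2.39 to 8.87), 8.47% and 10.3% (9.32 to 11.4). Embryonic cells with at least 10 UMIs of TAGLN, a contractile gene, had KLF5 at 4.47 (3.02 to 6.39, 363 cells) on D4 and 9.01 (5.04 to 14.9, 96 cells) on D6, above the remaining embryonic cells at 1.49 and 1.55. The D6 value came from 15 UMIs in 8 cells, 1 of which held 5. After thinning, 0.551% of TAGLN cells (2 cells) had a KLF5 UMI on D4 against 0.490% of the remaining cells. On D6 the thinned shares were 2.08% (2 cells) and 0.632%. ZFP42 was between 89.6 and 104 in the TFAP2A, TAGLN and remaining embryonic cells on both days.

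**Figure D4:**
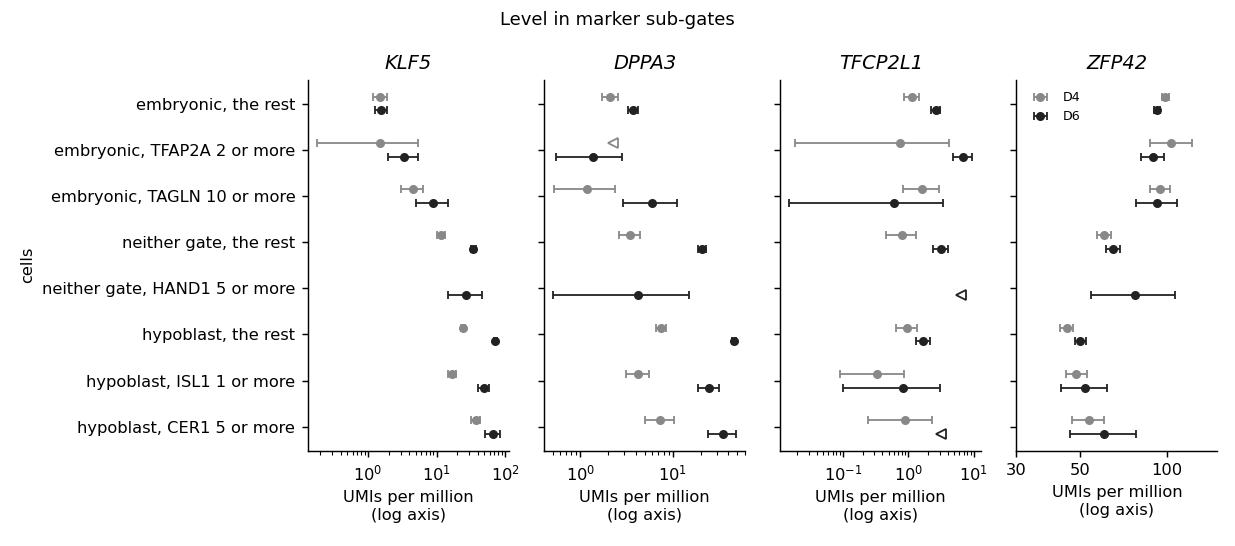
Levels of KLF5, DPPA3, TFCP2L1 and ZFP42 in CPM (log axes, ranges differ) in sub-gates set by marker UMIs, D4 in grey and D6 in black, with exact 95% Poisson intervals and open triangles at the limit of 3 counts where no UMI was found. The 7 and 25 embryonic cells with TBXT are left out, and no cell of D4 was in the HAND1 class. KLF5 and DPPA3 step up from embryonic to hypoblast cells, and TFCP2L1 is highest at 6.82 in embryonic cells with TFAP2A on D6.

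Other genes associated with naive cells were called on both sides. Of 24 such genes, 17 could be compared on D4, of which 8 were at least 2-fold higher in the embryonic gate and 6 in the hypoblast gate, and on D6 the numbers were 9 and 9 of 18, beside 16.5% and 15.2% of all genes on D4 and 22.0% and 14.7% on D6. The median log2 ratio was 0.86 on D4 and -0.28 on D6, so its sign was not the same on the 2 days. In the embryonic gate, DPPA4, a nuclear partner of DPPA2, was at 318 and 385 CPM against 65.6 and 79.4, and NANOG at 53.9 and 63.8 against 7.71 and 13.0. STAT3, the effector of LIF signals, was at 41.4 and 49.0 against 14.5 and 14.0. FGF4, a ligand made by pluripotent cells, had the largest ratio, at 5.16 against 0.105 on D4. TBX3, a T-box factor, stood at the other end, at 1.44 and 1.18 in the embryonic gate against 115 and 132. GDF3, a TGFβ-family ligand, was on opposite sides on the days, at 19.6 against 10.8 on D4 and 18.1 against 206 on D6. DNMT3L, a DNA methylation cofactor named here after its values were seen, was at 0.0865 and 0.160 against 3.70 and 15.4. ALPP and HORMAD1 had no UMI in either gate on either day, and ESRRB, a mouse naive factor, had at most 2 UMIs.

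Genes of primed pluripotency were more abundant. Of 20, 19 could be compared, of which 10 were at least 2-fold higher in the embryonic gate on D4 and 1 lower, and 8 and 3 on D6, beside the same shares of all genes (16.5% and 15.2%, then 22.0% and 14.7%). The median log2 ratio was 1.23 and 0.45. In the embryonic gate, CD24, a surface glycoprotein, was at 1442 and 1463 CPM, SFRP2 at 603 and 436, and DNMT3B, a de novo DNA methyltransferase, at 339 and 349. PODXL, an apical sialomucin, was higher in the hypoblast gate, at 387 against 189 on D4 and at 750 against 231 on D6. Between the days in the embryonic gate 0 of 19 were called, beside 5.43% of all genes higher and 2.02% lower, so a count of 0 is near the share of all genes. FGF5, a formative and primed ligand, had 0 UMIs in the embryonic gate on D4 and 1 on D6.

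**Figure D5:**
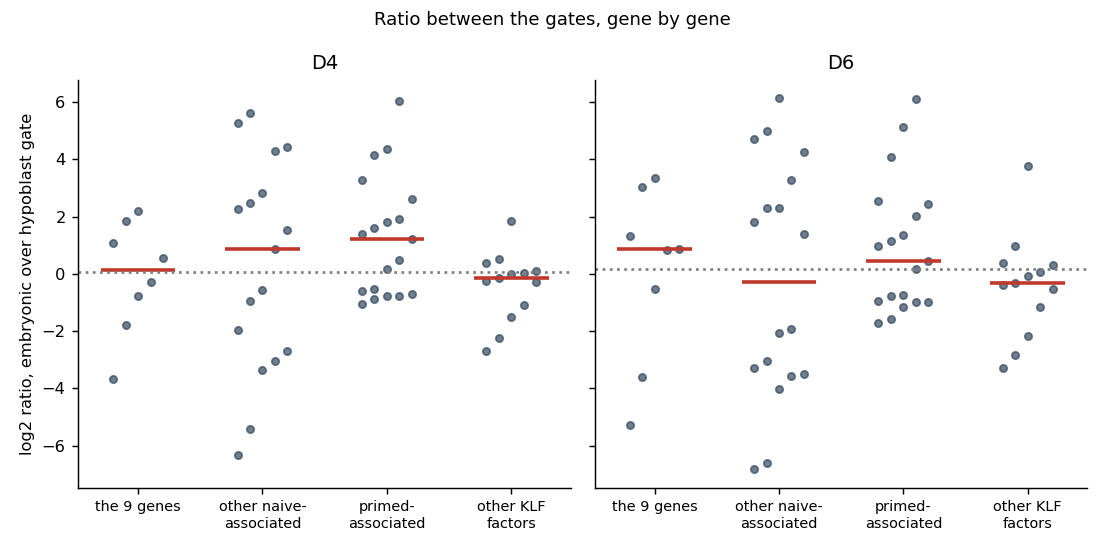
Log2 ratio of embryonic over hypoblast gate for each compared gene (points) of the 9 members, other naive-associated genes, primed-associated genes and the other KLF factors, on D4 and D6, with list medians in red and the median of all genes dotted. The naive-associated genes lie at both ends of the axis, from -6.82 for TBX3 to 6.12 for FGF4 on D6.

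Among the other 15 Krüppel-like factors, 13 could be compared, and on both days 4 were at least 2-fold higher in the hypoblast gate (15.2% and 14.7% of all genes) and 1 in the embryonic gate (16.5% and 22.0%). The most abundant in the embryonic gate were KLF6 at 31.9 CPM on D4, KLF13, KLF3 at 20.8 and KLF10 at 16.9, each above KLF4 and KLF5 there. KLF2, another factor of the naive network, was at 0.952 and 0.468 against 6.19 and 4.57 in the hypoblast gate, the lowest ratio of these 15 on both days, though not as low as that of KLF5. KLF9 was the one on the embryonic side, at 0.831 against 0.230 on D4 and at 1.63 against 0.120 on D6. Between the days in the hypoblast gate 0 of the 13 were called, which is near the share of all genes at 6.40% higher and 6.02% lower. Of the 5 relatives of TFCP2L1, GRHL2, an epithelial regulator, was at 1.97 and 4.40 in the embryonic gate and at 0.0627 and 0.431 in the hypoblast gate, and GRHL3 at 0.415 and 1.34 against 1.53 and 0.838. UBP1 and TFCP2, of the same CP2 subfamily, were at 37.7 and 16.7 in the embryonic gate on D4.

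The genes most like each member were found over 6 points, the cells of the embryonic gate, the hypoblast gate and neither gate on each day, among 16646 genes with at least 100 UMIs. Likeness was the distance between log2 levels centred on each gene's mean. SP8, a zinc-finger factor, was nearest to KLF5 at a distance of 0.20, with 1.89 and 1.78 CPM in the embryonic gate and 23.5 and 81.4 in the hypoblast gate on D4 and D6. F10, coagulation factor X, was at a distance of 0.46. For DPPA3 the nearest were HMOX1, heme oxygenase, at 0.80, SLC39A4, a zinc transporter, at 0.82 and AQP1, a water channel, at 0.84, so no gene was as close to it. HMOX1 was at 59.5 and 361 in the hypoblast gate. The nearest to ZFP42 were ALMS1-IT1, PLEKHG4B and KCTD14 at 0.083 to 0.11, to KLF4 SPIN2B, MAPK12 and PLEKHG2 at 0.10 to 0.14, and to TFCP2L1 ABCA3, RAX and AC090826.1 at 0.55 to 0.59. With 6 points that share 2 libraries, these are descriptions.

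Markers of other cell types were looked at because several members are used in them. Of 12 trophoblast genes, HLA-G and ERVW-1 reached 10 UMIs between the gates and the list summed to 1.75 to 2.92 CPM over gates and days. CGB5, PSG3 and VGLL1 had no UMI in either gate on either day. The 10 amnion genes summed to 25.1 and 43.6 in the embryonic gate, with TFAP2A at 7.73 on D4. The hypoblast gate had sums of 262 and 260, of which GATA3, also an endoderm gene, made 223 and 222. The 7 streak and mesoderm genes summed to 11.8 and 12.2 in the embryonic gate and to 174 and 293 in the hypoblast gate, where EOMES was at 128 and 176. MIXL1, an early streak gene, was at 27.6 and 84.0 there. EOMES and MIXL1 made most of that sum, and TBXT was at 1.65 and 3.38 in the hypoblast gate. The 10 hypoblast genes of the gate check also summed higher there on D6, at 24772 against 9181 CPM. Higher KLF5 and DPPA3 on D6 thus came with higher sums of both lists, but most other lists also summed higher there. Primed-associated genes were at 2620 against 1726, and other naive-associated genes at 651 against 344. Amnion genes and the relatives of TFCP2L1 did not sum higher, at 260 against 262 and at 42.8 against 44.0. A link to any list was not tested.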

How the data were processed

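Cells of 2 libraries of D4 and D6 hEEs were profiled on a 3′ droplet platform; 7 bisulfite libraries were not analysed here. The authors deposited raw UMI counts per gene and called cell, made with Cell Ranger 6.0.1 per the file headers on hg38, and the annotation is not given in the sources used here. The labels also name Seurat 4.0.1 and R 4.0.3. Called cells numbered 10943 and 11483, with 151712246 and 150320228 UMIs.

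Cells with 3430 to 27500 UMIs and at most 10% MT- UMIs were kept, as in the first filter of the study. The study later removed further cells by quality after subclustering, and that step was not repeated here. Gates, sub-gates and pooled CPM were computed with Python 3.11.15, numpy 2.4.6, scipy 1.17.1 and pandas 2.3.3 (figures with matplotlib 3.10.9). Intervals are exact Poisson, Clopper-Pearson or conditional binomial at 95% and cover counting error only. A count of 0 was bounded by 3 counts. Ratios used all genes with at least 10 UMIs over both groups. Thinning drew 3430 UMIs per cell. Likeness added 0.5 counts. No doublet caller was run. The embryonic gate allowed up to 2 UMIs of FN1 and the hypoblast gate up to 5 of POU5F1. Cells with UMIs of both lineages therefore remained in the gates. A POU5F1 UMI was found in 49.4% of hypoblast-gate cells on D4 and 33.2% on D6. An FN1 UMI was found in 25.3% and 25.8% of embryonic-gate cells. A limit of 20000 UMIs was an alternative. Ratios were tested on simulated data. Named genes were the members, the gate genes, for each list the 4 with the highest level and those with the extreme ratios, genes at 0, and the 3 genes nearest to each member, of which 1 is not reported here. The members and lists were chosen with earlier results of these data known. Gene positions are from RefSeq on GRCh38, matched by symbol. Alternatives changed the gates, cell filter, depth, measure, scaling and count filter.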

Additional observations from a re-analysis of the deposited data

Results flagged for a closer look

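ZFP42 had ratios of opposite sign between the days in the gates, and both intervals left out 0. Its log2 ratio of D6 over D4 was -0.0942 (-0.15 to -0.04) in the embryonic gate and 0.111 (0.02 to 0.20) in the hypoblast gate. The difference was not tested, since each day had 1 library.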

How the results depend on the processing

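No paired analysis was possible because each day had 1 library of single cells and no test was run. No ratio whose interval left out 0 changed sign under any alternative run. Of the counts of members under alternatives, 77 stayed within 1.5 times the value given and 3 did not. With each cell thinned, 1 in place of 3 members was at least 2-fold higher in the embryonic gate on D4, and this was ZFP42. DPPA5 and SUSD2 no longer reached the minimum of UMIs. On D6 it was also 1 in place of 3, but a different gene, TFCP2L1, at 2.31 against 1.14 CPM. DPPA5, SUSD2 and ARGFX, called before thinning, no longer reached the minimum there. With means over cells, 1 member in place of 0 was at least 2-fold lower on D6 in the hypoblast gate (ARGFX at a log2 ratio of -1.12, from 6 and 4 UMIs). Of the ratios of single genes, 255 stayed within their interval and 14 did not, 9 of them with thinned cells. With gates from other genes, the log2 ratio of DPPA3 was -2.23 in place of -1.78 between the gates on D4 and 2.33 in place of 2.72 between the days in the hypoblast gate. KLF5 was at -3.71 and -5.35 between these gates. TFCP2L1 in the hypoblast gate was under 2-fold between the days with stricter gates (0.91), without MT- genes in the total (0.99) and with thinned cells (0.82). Leaving out cells with barcodes found in both libraries, chosen after seeing the data, left every value within its interval. For genes with few UMIs the depth set the result, and SUSD2 was among them at 22 and 44 UMIs in the embryonic gate on D4 and D6. A level under the limit of 3 counts could not be told from absence.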
